A study of Mus musculus with 86 samples.

Results

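Round spermatids are the haploid cells that follow meiosis, and in the *Btbd18* knockout the fraction labelled round spermatids was set against the fraction labelled spermatocytes of the same genotype, to describe which cells the first of them holds. All 3 knockout round spermatid libraries and all 3 knockout spermatocyte libraries were taken by their labels, which makes 6 of the 86 samples of the series, and the 2 count tables were joined by gene symbol over all 24276 features. The knockout animals were homozygous and 4 months old, of a C57BL/6 (B6) X 129/SvJ hybrid strain. Heterozygous animals of the same age and strain served as controls, with 3 libraries of each fraction, so every control carries 1 mutant allele. RNA from whole testes of both genotypes at postnatal days 10, 14, 18 and 28 (P10 to P28) was used only to place genes in time and to compare levels. Below, RS stands for the fraction labelled round spermatids and SC for the fraction labelled spermatocytes. How the cells were purified is not given in the labels, and neither is whether libraries came from separate animals, so p values measure only the spread between these samples.

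Male germ cells begin as spermatogonia, which divide by mitosis, pass through meiotic prophase as spermatocytes and complete meiosis as round spermatids. During the pachytene stage of prophase the X and Y chromosomes do not pair along their length and their genes are silenced, and most X-linked genes stay low afterwards. Pachytene cells make abundant piRNA precursors under the transcription factor encoded by *Mybl1*. Round spermatids then switch on genes for the acrosome (the sac of enzymes at the sperm head), the tail and the protamines that pack sperm DNA. *Btbd18* encodes a nuclear protein that supports transcription of piRNA precursor loci.

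The libraries were shallow and of unequal complexity. Knockout SC libraries held 376404 to 489641 counts and 10682 to 11196 detected features. Knockout RS libraries 1, 2 and 3 held 416029, 193711 and 349494 counts and 13601, 4246 and 11218 detected features. In RS library 2 only 9.02% of the detected features had 1 to 9 counts, against 35.0% to 66.4% in the other 11 purified-cell libraries, and 57.1% of the features tested below were at 0 there. The feature named for the ribosomal RNA precursor, *Rn45s*, took 3.95% of counts in RS library 2 and 2.77% in RS library 3, against 0.339% to 0.829% in the other 10. *Btbd18* itself had 0, 1 and 0 counts in knockout SC and 3, 0 and 0 in knockout RS, and 0 to 2 in the heterozygous libraries, so the genotype labels could not be checked by it.

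**Figure D1:**
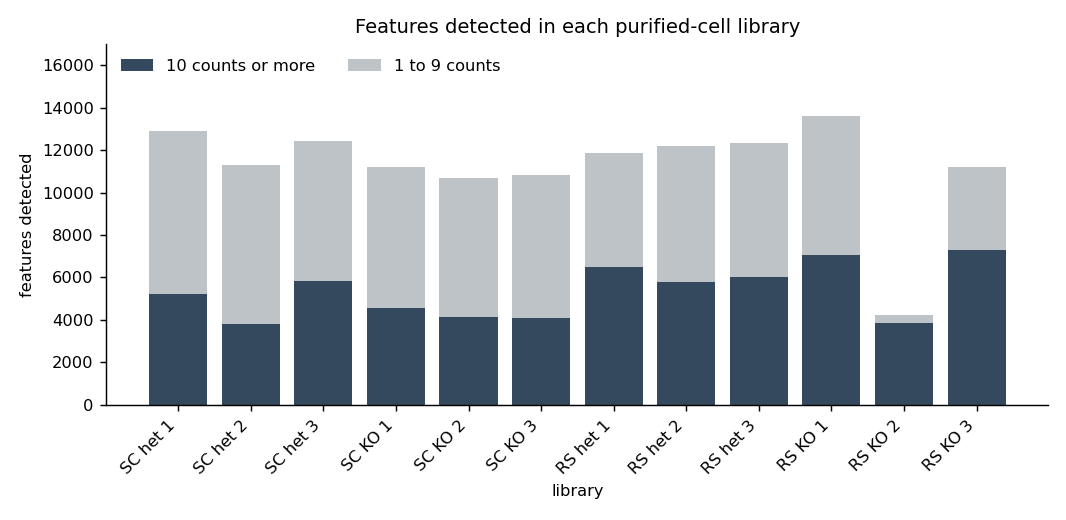
Features detected (vertical axis) in each of the 12 purified-cell libraries (horizontal axis; het, heterozygous; KO, knockout), split into features with 1 to 9 counts (light) and with 10 or more (dark). Knockout RS library 2 stands apart with 4246 detected features and almost no light segment.

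In the purified-cell tables many of the highest counts lay on features that overlap a gene of the opposite strand. Among features whose strand is known, 26.4% overlap such a gene, but they held 67.7% to 67.9% of counts in knockout SC and 47.0% to 51.3% in knockout RS, against 28.0% to 31.2% in whole testes. *Gm166* is an example (chromosome 7, 127582383 to 127588666, minus strand, GRCm38.p6), since its end overlaps *Phkg2* on the plus strand (127573345 to 127583307). *Gm166* had the highest mean level in knockout SC, 29493 CPM (counts over the library total, scaled to a common size). Its mean over all testis libraries of both genotypes was 34.4 CPM, where *Phkg2* had 171 CPM. Similarly, *Ahsa2* lies opposite *Usp34* on chromosome 11 and was listed at 9809 CPM in knockout RS, against 15.2 CPM in testes, where *Usp34* had 500.1 CPM. Of the 20 most abundant features, 13 in knockout SC and 14 in knockout RS overlap an opposite-strand gene, and 0 and 1 lie clear of one by more than 5 kb. The purified-cell kit marks strand and the testis kit is another, and the strand setting of the counting is not stated, so the count of an overlapping feature may hold RNA of its partner; the cause was not tested. Results are therefore also given for the 9434 features clear of opposite-strand genes, whose ranks followed the testis levels with a Spearman rho of 0.61 to 0.63 in knockout SC and of 0.80, 0.42 and 0.75 in knockout RS. The 6423 features whose strand is not known could not count as opposite-strand neighbours. A clear feature may therefore still overlap one of them, as *Pdha1* does with *Map3k15*.

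**Figure D2:**
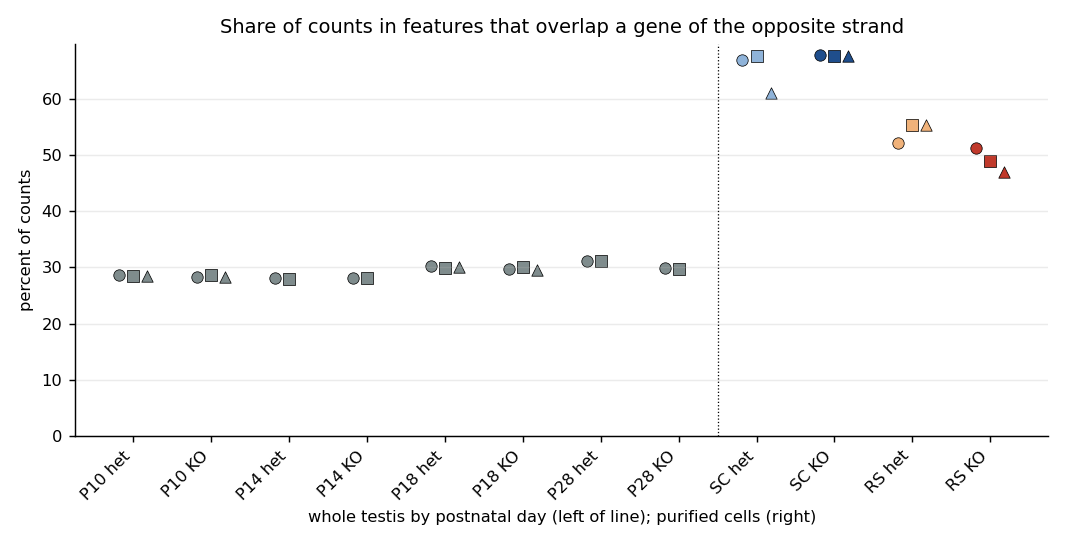
Percent of strand-known counts (vertical axis) in features that overlap a gene of the opposite strand, for each whole-testis library (grey, left of the dotted line) and each purified-cell library (coloured, right). Every purified-cell library lies above 47%, and every testis library below 31.2%.

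Knockout RS differed widely from knockout SC. Of 7900 features tested, 989 were higher and 1658 lower in RS (33.5% called either way, 12.5% higher and 21.0% lower; adjusted p below 0.05). Adjusted p values are from edgeR's quasi-likelihood test with Benjamini-Hochberg adjustment over all features tested. The direction of this split depended on the scaling. With trimmed mean (TMM) scaling 37.4% of the called features were higher, and with total counts alone 70.2% (2442 higher, 1037 lower), the median log2 difference over all tested features moving by 1.19 from -0.22. A feature was tested where enough libraries of any group held counts, and 1449 of the 7900 had at most 3 counts in every knockout SC library; such features could hardly be called lower. Without RS library 2 the counts were 2157 higher and 2239 lower. Without SC library 1, 2 or 3 they were 295, 401 or 394 higher and 1039, 1062 or 1151 lower. Without RS library 2, 2611 of the 2647 called features were called the same way again. With total counts 0 features were called the opposite way, all 989 higher calls were kept and 621 of the lower calls were lost. The 2 fractions were deposited in separate tables, so the fraction and anything else that differed between the tables cannot be told apart. Lower counts of a cell type's genes can reflect fewer such cells or less RNA per cell, which cannot be told apart either.

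X-linked genes separated the 2 fractions. Their share of the counts on features with a known chromosome was 0.0389%, 0.0818% and 0.0298% in knockout SC and 2.102%, 2.27% and 1.97% in knockout RS. No values overlapped, and the difference of means had an exact two-sided permutation p of 0.1, the smallest that 3 against 3 libraries can give. Heterozygous RS libraries held 0.377% to 0.586%, heterozygous SC 0.0765% to 0.148%, and whole testes from 3.54% to 3.64% in heterozygotes at P10 down to 1.34% to 1.39% at P28. The knockout RS libraries thus lay above every other purified-cell library and above the P28 heterozygous testes. Over clear features alone the share was 3.99% to 5.67% in knockout RS and 0.0703% to 0.192% in knockout SC.

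**Figure D3:**
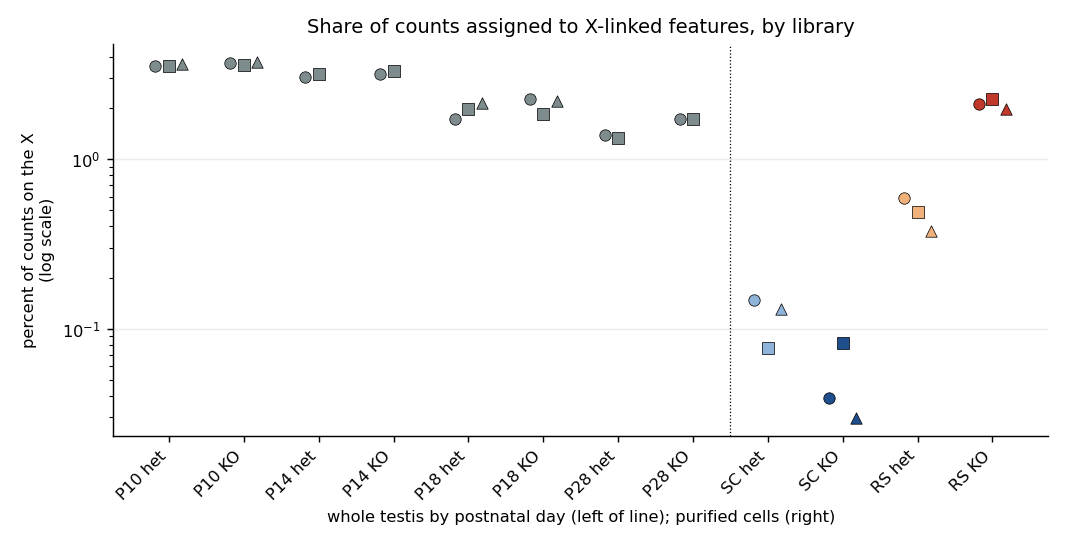
Percent of counts on X-linked features (vertical axis, log scale) in each library, with whole testes left of the dotted line and purified cells right of it. The 3 knockout RS libraries lie between 1.97% and 2.27%, and the 3 knockout SC libraries between 0.0298% and 0.0818%.

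Gene by gene, 91 of the 1054 X-linked features were tested, and 75 of these had at most 3 counts in every knockout SC library. They passed the count filter through other groups, often knockout RS (51 of the 91 had at least 10 counts in each library there), so their direction was largely fixed by the filter and their calls are given only as a description. Of the 91, 64 were higher in knockout RS and 1 was lower, with 35 higher without SC library 1. Autosomal features divided into 908 higher and 1584 lower of 7627, and the medians of single autosomes ran from -0.63 to 0.00; with total counts 2324 were higher and 984 lower, with medians from 0.51 to 1.26. Without RS library 2, 137 of 162 X-linked features were higher and 1 lower. The lower one was the microRNA gene *Mir421* (33, 38 and 32 counts in SC and 13, 0 and 0 in RS), named here after its values were seen.

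*Huwe1*, the gene of a large ubiquitin ligase (X, 151800785 to 151935417), had 2, 9 and 3 counts in knockout SC and 628, 361 and 325 in knockout RS. Its level was 11.8 ± 10.2 CPM (SD, n = 3) in SC and 1434 ± 471 CPM in RS, against 78.2 ± 37.8 CPM in heterozygous RS. The groups did not overlap, and the fitted log2 difference was 5.67 ± 0.73 (standard error, adjusted p = 0.00012). *Cul4b*, a scaffold of another ubiquitin ligase, had 1, 0 and 0 counts against 92, 75 and 48 (6.61 ± 0.92, adjusted p = 0.00017). *Hcfc1*, a transcriptional coregulator, had 1, 0 and 1 counts against 114, 53 and 91 (6.05 ± 0.99, adjusted p = 0.000532).

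These 2 genes had next to no counts in SC and clear counts in every RS library. In a list of 20 X-linked genes known to be silenced at pachytene, 9 were tested, of which 0 had 10 counts in each SC library; 8 of these 9 were higher in RS, which the filter favours in the same way. *Pdha1*, which encodes a subunit of pyruvate dehydrogenase and whose autosomal copy *Pdha2* takes over in meiotic cells, had 10, 15 and 3 counts in SC and 318, 234 and 154 in RS (3.81 ± 0.78, adjusted p = 0.00275). It was listed at 0 in all 3 heterozygous RS libraries. *Pdha1* had no opposite-strand gene within 5 kb, but *Map3k15* overlaps it on a strand that the table used here does not give. The list's summed level was 26.6 to 132 CPM in knockout SC and 4154, 4223 and 3465 CPM in knockout RS.

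The summed level of spermatogonial genes was also higher in every knockout RS library than in any knockout SC library. The list of 25 summed to 110, 187 and 77.0 CPM in knockout SC and to 2702, 3371 and 1800 CPM in knockout RS. In heterozygous testes it summed to 2603 to 2635 CPM at P10 and 499.7 to 504 CPM at P28. A level above knockout SC was not particular to knockout RS. In heterozygous RS the mean of *Gfra1* alone, given below, exceeded the list sum of every knockout SC library. Of the 25, 13 were tested, 12 were higher and 1 lower (8 higher without SC library 1). Since 11 of the 13 had at most 3 counts in every SC library and were tested through other groups, that tally and the calls of single genes below are a description only.

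*Uchl1*, a ubiquitin hydrolase used as a marker of spermatogonia, had 1, 0 and 1 counts in SC and 172, 61 and 106 in RS (6.44 ± 1.14, adjusted p = 0.00091); it overlaps *Uchl1os* on the other strand. *Dmrt1*, a transcription factor of mitotic germ cells, had 2, 1 and 1 counts against 166, 31 and 109 (5.39 ± 0.98, adjusted p = 0.00101). *Kit*, the receptor kinase of differentiating spermatogonia, had 1, 1 and 0 against 86, 8 and 41 (5.13 ± 1.33, adjusted p = 0.00866).

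Each of these markers was near 0 in every SC library and higher in every RS library. Genes of undifferentiated spermatogonia were among them. *Zbtb16*, a transcription factor of spermatogonial stem cells, had 2, 3 and 2 counts in SC and 79, 44 and 37 in RS (3.63 ± 0.99, adjusted p = 0.013). *Gfra1*, a receptor for the niche factor GDNF, had 1, 0 and 2 against 29, 62 and 37 (4.46 ± 1.11, adjusted p = 0.0069), although heterozygous RS held still more of it, 826 ± 233 CPM. That mean alone lay above the sum of the whole spermatogonial list in every knockout SC library. *Gfra1* overlaps *Gm10007* on the other strand. In testes *Gfra1* had 20.6 CPM and *Gm10007* had 0 CPM. *Ret*, the coreceptor of *Gfra1*, had 0 counts in SC and 37, 66 and 39 in RS, at least 23.9-fold higher with a floor of 3 counts over the SC group and TMM scaling (61.7-fold with total counts).

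Genes of entry into meiosis were present as well. *Stra8*, which is switched on by retinoic acid at that step, had 1, 6 and 1 counts in SC and 113, 52 and 33 in RS (3.72 ± 1.04, adjusted p = 0.0147). *Dazl*, an RNA-binding protein of germ cells before and during early meiosis, had 16, 10 and 8 counts against 376, 142 and 180 (3.56 ± 0.65, adjusted p = 0.00104). The exception in the spermatogonial list was *Utf1*, a chromatin factor of undifferentiated cells, with 31, 28 and 11 counts in SC and 1, 0 and 0 in RS (-6.40 ± 1.14, adjusted p = 0.00125).

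**Figure D4:**
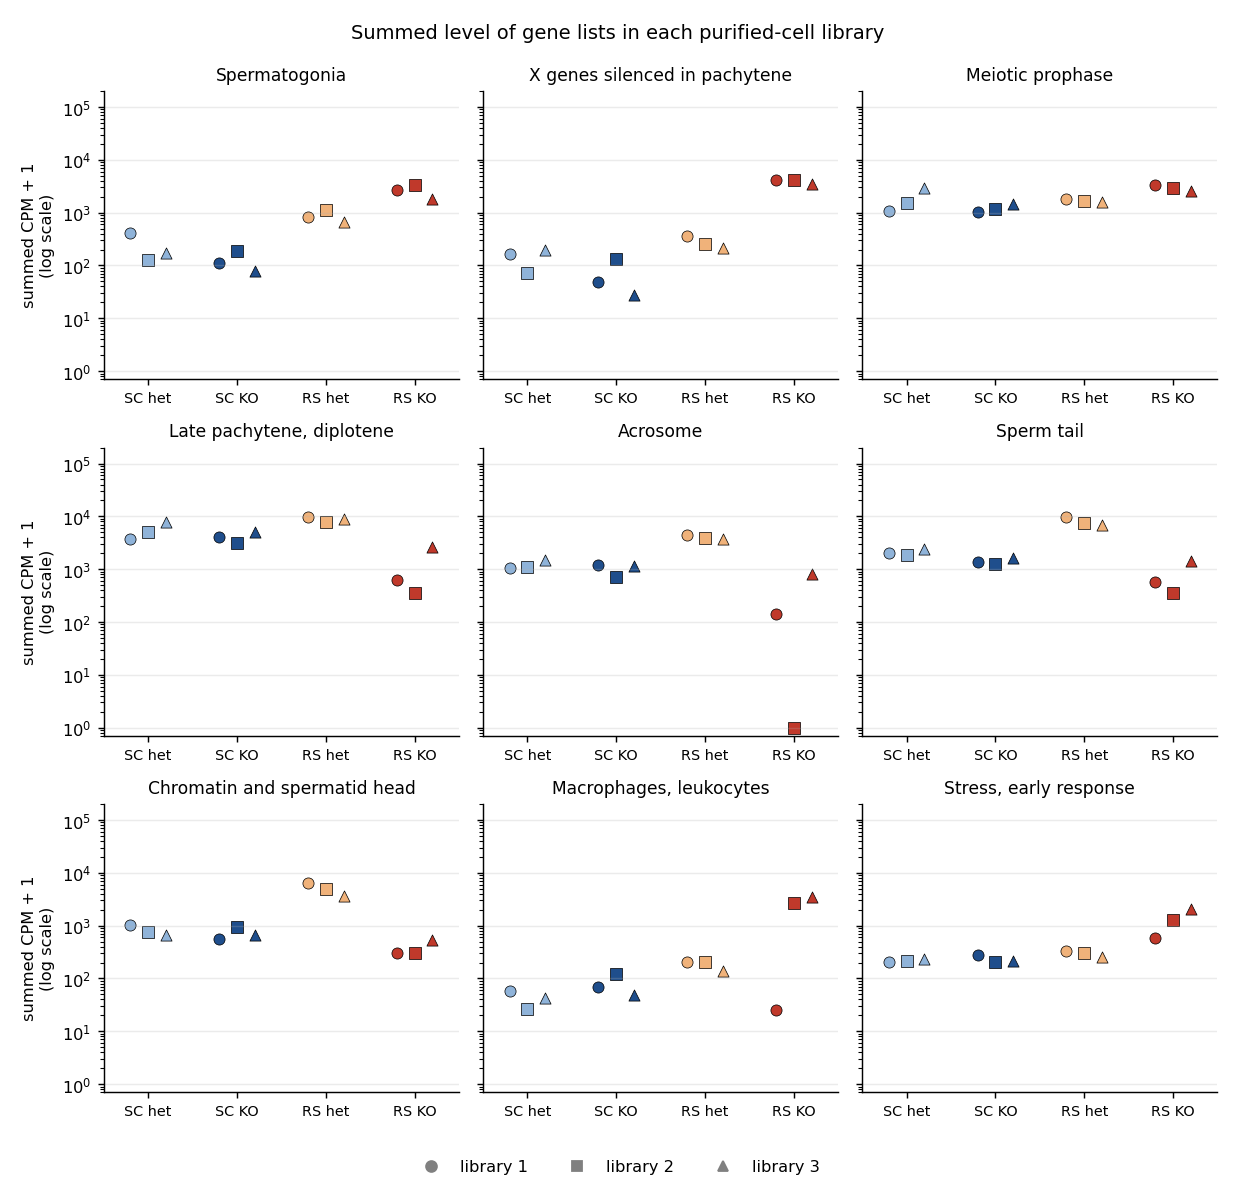
Summed level of 9 gene lists (vertical axes, CPM + 1, log scale) in the 12 purified-cell libraries, with circles, squares and triangles for libraries 1, 2 and 3. Knockout RS lies above knockout SC for spermatogonial genes and for X genes silenced in pachytene, and below heterozygous RS for acrosome, tail and spermatid head genes. Its macrophage list reads 24.0, 2643 and 3414 CPM.

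Genes of meiotic prophase did not move together. Of 31 listed, 16 were tested, 3 were higher and 2 lower in knockout RS, with a median of 0.79; with total counts it was 9 and 0, and 1 to 8 were higher when 1 library was left out (1 without RS library 1, 8 without RS library 2). *Tex15*, which acts in meiotic recombination, had 7, 14 and 2 counts in SC and 258, 124 and 106 in RS (3.55 ± 0.71, adjusted p = 0.0018). *Zcwpw1*, a histone mark reader in recombination, was also higher (2.57 ± 0.86, adjusted p = 0.0303).

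*Sycp2*, an axis protein of the synaptonemal complex, had 128, 169 and 198 counts in SC and 109, 19 and 45 in RS (-2.34 ± 0.64, adjusted p = 0.0117), but this call was lost with total counts (adjusted p = 0.089) and its CPM overlapped. *Mlh3*, a crossover protein, was lower too (-2.64 ± 0.95, adjusted p = 0.0424; 0.186 with total counts). *Sycp3* (-0.95, adjusted p = 0.318) and *Sycp1* (0.93, adjusted p = 0.281), the other axis and the bridging protein of the complex, did not pass the test.

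Genes of late pachytene and diplotene were lower in knockout RS. Of 22 listed, 19 were tested, 10 were lower and 0 higher, with a median of -2.54; with total counts 6 were lower and 0 higher, without SC library 3 it was 5 lower and without RS library 3 it was 15. Only 5 were clear features, of which 1 was lower and 0 higher. Of the 19, 16 had at least 10 counts in each knockout SC library and 2 in each knockout RS library. They passed the count filter mostly through groups where they are high, which favours the lower direction. This tally and the calls of single genes below are therefore a description only. The list summed to 4001, 3132 and 4950 CPM in knockout SC and to 611, 351 and 2618 CPM in knockout RS, against 7795 to 9522 CPM in heterozygous RS. RS library 3 thus held several times the level of the other two, and still less than any SC library.

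*Piwil1*, the PIWI protein of pachytene piRNAs, had 88, 80 and 128 counts in SC and 11, 0 and 3 in RS (-5.18 ± 0.92, adjusted p = 0.000877). *Tdrd6*, a protein of the germ cell RNA granule, had 194, 167 and 187 counts against 10, 14 and 45 (-3.76 ± 0.60, adjusted p = 0.000457). *Mybl1* had 24, 22 and 27 against 6, 0 and 4 (-3.61 ± 0.94, adjusted p = 0.00849).

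All 3 of these genes were lower in every RS library than in any SC library. *Clgn*, a chaperone of the endoplasmic reticulum in spermatocytes, had 375, 163 and 313 counts in SC and 23, 25 and 106 in RS (-3.20 ± 0.63, adjusted p = 0.00171). *Hspa2*, a heat shock protein needed to complete meiosis, had 230, 145 and 238 against 20, 0 and 118 (-2.87, adjusted p = 0.0381). *Ldhc*, the germ cell lactate dehydrogenase, had 353, 165 and 340 against 20, 0 and 175 (-2.84 ± 1.05, adjusted p = 0.0486). The calls of *Hspa2* and *Ldhc* were lost with total counts (adjusted p = 0.0864 and 0.102), and for *Ldhc* the groups overlapped.

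Round spermatid genes were seldom called higher in knockout RS. In the acrosome list 18 of 20 genes were tested and 0 were higher and 6 lower than in knockout SC (median -1.04; 3 lower without SC library 1), while in the heterozygous comparison of the same fractions 9 were higher and 0 lower (median 2.88). The heterozygous calls depended on single libraries. Over all features the higher calls fell from 361 to 6 without heterozygous SC library 2 and to 8 without heterozygous SC library 3 or RS library 1, and those of the acrosome list fell to 0 without heterozygous RS library 1. All 18 acrosome genes had at least 10 counts in each heterozygous RS library and so were tested through that group, which favours the higher direction there. The share called in that comparison over all features was 14.4% (4.57% higher, 9.84% lower; with total counts 877 features higher and 829 lower, against 361 and 777). The acrosome genes summed to 142, 0 and 804 CPM in knockout RS, 725 to 1211 CPM in knockout SC and 3777 to 4509 CPM in heterozygous RS. RS library 3 thus reached the range of knockout SC. With total counts 1 was higher and 3 lower, and among the 7 clear genes 0 were higher and 2 lower, with a median of 0.99, the opposite sign of the whole list.

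*Acrv1*, an acrosomal matrix protein, had 3, 7 and 1 counts in knockout SC, 1, 0 and 0 in knockout RS and 139, 76 and 63 in heterozygous RS. Its log2 difference was -3.79 ± 1.13 in the knockout (adjusted p = 0.0173; 0.0864 with total counts) and 3.94 in heterozygotes (adjusted p = 0.00688). *Crisp2*, a protein of acrosome and tail, had 327, 123 and 230 counts in knockout SC and 18, 0 and 70 in knockout RS (-3.64 ± 0.95, adjusted p = 0.00861).

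Both were thus lower in knockout RS than in knockout SC and heterozygous RS. *Lyzl6*, a lysozyme-like acrosomal protein, had 31, 12 and 20 counts in knockout SC and 0 in all 3 knockout RS libraries, at least 16.1-fold lower with a floor of 3 counts over the group and total counts, the scaling that gives the lower bound in this direction.

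Genes of chromatin condensation and the spermatid head behaved alike. Of 25 listed, 21 were tested, and 0 were higher and 8 lower in the knockout comparison (median 0.00), against 12 higher and 0 lower in heterozygotes (median 3.13); with total counts the knockout values were 2 higher and 5 lower, and among 9 clear genes 0 and 5. All 21 had at least 10 counts in each heterozygous RS library, and the heterozygous higher calls fell to 0 without heterozygous RS library 1. They summed to 308, 305 and 532 CPM in knockout RS, 551 to 922 CPM in knockout SC and 3717 to 6307 CPM in heterozygous RS. *Tnp2*, a transition protein that replaces histones, had 81, 79 and 54 counts in knockout SC, 4, 0 and 6 in knockout RS and 298, 166 and 130 in heterozygous RS (-5.14 ± 0.78 in the knockout, adjusted p = 0.000306). *Prm1*, a protamine, had 17, 35 and 27 counts in knockout SC and 9, 1 and 0 in knockout RS, against 289, 167 and 155 in heterozygous RS (-3.78 ± 0.91, adjusted p = 0.00568).

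The knockout RS libraries lay below both other groups for these 2 genes. *Tnp1*, the other transition protein, was listed at 0 in all knockout SC libraries and had 0, 0 and 5 counts in knockout RS, against 223, 119 and 76 in heterozygous RS. *Capza3*, an actin-capping protein of the sperm head, had 76, 122 and 40 counts in knockout SC and 0, 0 and 3 in knockout RS (-6.92, adjusted p = 0.00022).

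Sperm tail genes summed to 572, 351 and 1422 CPM in knockout RS, 1244 to 1645 CPM in knockout SC and 6961 to 9538 CPM in heterozygous RS. Of 23 tested, 0 were higher and 6 lower in the knockout (median -0.59), which turned into 3 higher and 2 lower with total counts, and 10 were higher and 0 lower in heterozygotes (0 and 0 without heterozygous SC library 2). In the knockout 2 were lower without SC library 1. All 23 had at least 10 counts in each heterozygous RS library, which favours the higher direction in heterozygotes. Of the 23, 10 had at most 3 counts in each knockout SC library and 4 were at 0 in all 6 knockout libraries. Over all features 21.0% were lower in the knockout, and the tail tallies are a description only. *Akap4*, the main fibrous sheath protein, is X-linked and had 0 counts in knockout SC, 2, 0 and 11 in knockout RS and 315, 199 and 172 in heterozygous RS. *Odf1*, an outer dense fibre protein, had 1, 2 and 1 counts in knockout SC, 2, 0 and 0 in knockout RS and 195, 137 and 108 in heterozygous RS.

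Both tail genes stayed at 11 counts or fewer in every knockout library. Of 14 tested genes of spermatid transcription and kinases, 12 had at least 10 counts in each heterozygous RS library. Of the 14, 4 had at most 3 counts in each knockout SC library. With 1 library left out, 1 to 4 were higher and 2 to 5 lower in the knockout, and with total counts 4 and 2. In the main fit 3 were higher and 4 lower, against 12.5% and 21.0% over all features, which is a description only. The higher ones were *Taf7l*, an X-linked transcription factor subunit also made in spermatogonia (7, 5 and 2 counts in SC and 244, 18 and 183 in RS), and the kinases *Tssk1* (4, 1 and 6 against 41, 48 and 30) and *Tssk2*. *Tssk1* has the opposite-strand gene *Dgcr2* within 5 kb, which had 226 CPM in testes against 29.3 CPM for *Tssk1*. The lower ones were *Sox30* and *Rfx2*, transcription factors of the spermatid programme, *Brdt*, a reader of acetylated histones, and *Papolb*, a cytoplasmic poly(A) polymerase (95, 29 and 77 counts against 3, 0 and 23). The calls of *Sox30* and *Rfx2* were lost with total counts (adjusted p = 0.152 and 0.12).

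Genes were also grouped by age in heterozygous testis, without regard to the purified cells. A gene was put in the P14, P18 or P28 group where its level was at least 10 CPM and at least 8-fold that of each earlier age. The groups share members, 46 between P14 and P18 and 9 between P18 and P28. For P14, when pachytene cells appear, 120 of 189 tested features were lower in knockout RS and 2 higher, with a median of -2.87. For P18 it was 157 lower and 2 higher of 287, with a median of -2.65. Over genes in 1 group only it was 94 lower of 143 and 128 lower of 233, and without SC library 3 for P14 and SC library 1 for P18 the lower calls came to 73 and 98. The higher ones, named after their values were seen, were the piRNA loci 10-qC1-12816 and 7-qD2-24830 in the first group and 7-qD2-24830 and *Ccdc175* in the second. Of the P14 group 137 features had at least 10 counts in each knockout SC library and 12 in each knockout RS library, and of the P18 group 161 and 17. The count filter thus favours the lower direction, and these tallies are a description only.

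With total counts 77 and 103 of these 2 groups were lower, and among clear features 27 of 43 and 53 of 94. In heterozygotes 30 and 15 were lower, and 3 and 21 higher. For the P28 group, when round spermatids are present, 386 of the 397 tested genes had at least 10 counts in each heterozygous RS library, 289 had at most 3 in each knockout SC library and 74 were at 0 in all 6 knockout libraries. They were tested through heterozygous RS, so their calls (203 higher and 2 lower in heterozygotes, 5 higher without heterozygous SC library 2; 17 and 56 in the knockout) and the knockout median of 0.00 are a description only. The summed level of the whole group of 627 was 6923, 6215 and 8126 CPM in knockout RS, 7661 to 9621 CPM in knockout SC and 47564 to 68609 CPM in heterozygous RS. Over the clear ones it was 824 to 1625 CPM in knockout RS and 877 to 1223 CPM in knockout SC, which overlap, against 14560 to 22939 CPM in heterozygous RS. Knockout testes at P28 held 1497 and 1507 CPM of the whole group, against 69532 and 71410 CPM in heterozygous ones.

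**Figure D5:**
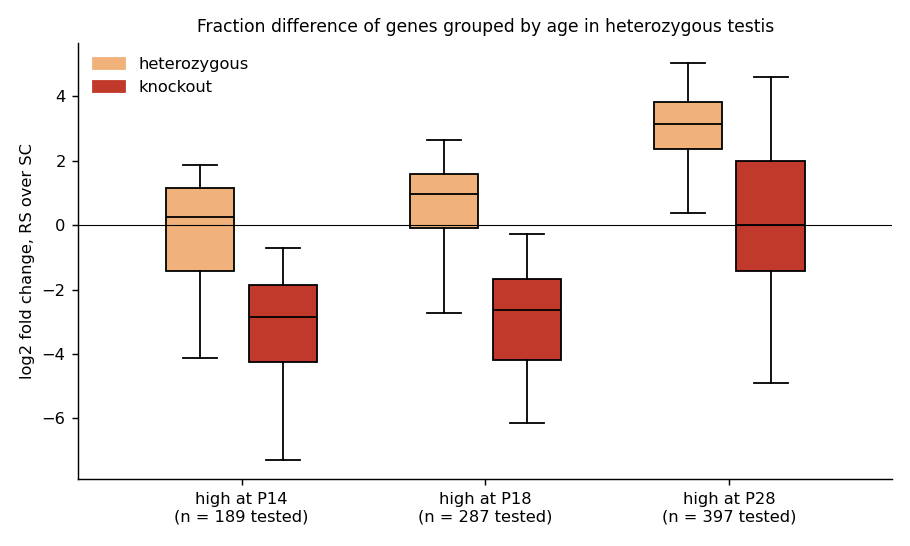
Log2 fold change of RS over SC (vertical axis, TMM scaling) for genes at least 8-fold above every earlier age in heterozygous testis at P14, P18 or P28, in heterozygous (orange) and knockout (red) cells. Boxes span the quartiles with the median as a line, and whiskers the 5th to 95th percentiles; the knockout medians are -2.87, -2.65 and 0.00, and the last heterozygous median is 3.15. The P28 genes were tested through heterozygous RS, and 74 of them are at 0 in all knockout libraries. Most of the P14 and P18 genes had at least 10 counts in each knockout SC library and few had that in each knockout RS library, which favours low values. With total counts the knockout medians of the 3 groups are -1.72, -1.44 and 0.45.

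Intergenic piRNA loci were more often lower than higher in knockout RS, and loci named after a gene had no direction that held under both scalings. Of 100 intergenic loci, 84 were tested, 47 were lower and 4 higher, with a median of -3.08; with total counts 36 were lower and 10 higher. Of these 84, 41 had at least 10 counts in each knockout SC library and 10 in each knockout RS library. The count filter thus favours the lower direction, and the tally is a description only. Of 114 loci named after a gene, 60 were tested, 16 were lower and 8 higher, with a median of -0.44, and with total counts 10 and 17. The intergenic loci summed to 8490 to 10673 CPM in knockout SC and to 5064 to 6525 CPM in knockout RS. The heterozygous fractions held more, 14686 to 17012 CPM in SC and 18723 to 21884 CPM in RS. Locus by locus, calls were more often lower than higher in heterozygous RS as well. With 1 library left out, 12 to 45 were lower and 0 to 10 higher there, with medians from -1.94 to -1.44. Lower calls of single loci in RS were thus not particular to the knockout. The summed level was lower in RS than in SC in the knockout only, and higher in RS in heterozygotes. Between the genotypes 13 to 31 loci were relatively lower in the knockout and 3 to 10 relatively higher, with 1 library left out. The 4 loci higher in knockout RS, named after their values were seen, were 10-qB4-6488, 10-qC1-12816, 7-qD2-24830 and 7-qD2-40.

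The locus 14-qA3-3095 had 122, 164 and 92 counts in knockout SC and 0 in all 3 knockout RS libraries, at least 96.6-fold lower with a floor of 3 counts over the group and total counts. In heterozygous RS it had 98, 102 and 119 counts. The locus pi-Hjurp had 894, 942 and 735 counts in knockout SC and 17, 12 and 6 in knockout RS (-7.02 ± 0.61, adjusted p = 1.78e-05).

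Both loci were lower in every RS library, but loci with high levels did not all follow. The locus pi-Luzp1 had 2522, 1834 and 2035 counts in SC and 2184, 733 and 1266 in RS (-1.41 ± 0.46, adjusted p = 0.0273), a call that was lost with total counts (-0.11, adjusted p = 0.77). Of 21 tested piRNA pathway proteins, 15 had at least 10 counts in each knockout SC library and 9 in each knockout RS library. With total counts 6 were higher and 3 lower. With TMM scaling 5 were lower and 0 higher (median -0.69), against 21.0% lower over all features, so the tally is a description only. The 5 were *Piwil1*, *Tdrd6* and *Mybl1*, given above, *Tdrd5*, a partner of *Tdrd6* in the RNA granules, and *Pld6*, a mitochondrial protein of piRNA processing; with total counts the calls of the last pair were lost (adjusted p = 0.339 and 0.082). *Ddx4*, a germ cell helicase of the same granules, did not pass the test (-0.06 ± 0.46, adjusted p = 0.941) but was called higher with total counts (1.28, adjusted p = 0.016), and *Mael* did not pass (-1.04, adjusted p = 0.174).

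Markers of other testis cells moved with single RS libraries. A list of 18 macrophage and leukocyte genes summed to 47.8 to 122 CPM in knockout SC and to 24.0, 2643 and 3414 CPM in knockout RS, with 3, 10 and 18 members detected. *Lyz2*, macrophage lysozyme, had 2, 0 and 4 counts in SC and 0, 111 and 346 in RS, and *Mrc1*, the mannose receptor of tissue macrophages, had 0 in all SC libraries and 0, 74 and 118 in RS. The filter left 1 of these genes, *Aif1*, which did not pass the test (-1.63, adjusted p = 0.103); without RS library 1, 9 macrophage genes were called higher.

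RS libraries 2 and 3 were therefore rich in macrophage genes and RS library 1 was not. Sertoli genes summed to 202, 87.8 and 1305 CPM in knockout RS and 178 to 345 CPM in SC, while the defining *Sox9* and *Fshr* were at 0 in all 6 libraries. *Clu*, abundant in Sertoli cells, had 0 counts in SC and 6, 0 and 117 in RS. *Insl3*, a Leydig cell hormone, had 0 in SC and 3, 17 and 62 in RS. *Acta2*, of peritubular muscle, had 20 counts in RS library 3 and 0 in the other 5.

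RS library 3 thus held the highest sums of the macrophage and Sertoli lists among the 3. In RS library 1, where the macrophage list stood at 24.0 CPM with 15 of 18 members at 0, the X-linked share (2.102%) and the spermatogonial sum (2702 CPM) lay between those of the other 2. *Star* and *Tagln*, a Leydig and a muscle gene, went the other way (*Star* 239, 247 and 268 counts in SC and 34, 53 and 24 in RS). Each has another expressed gene within 5 kb, and their strand is not in the table used here.

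Early response genes followed the same libraries in part. *Egr1*, an immediate early transcription factor, had 0 counts in SC and 25, 54 and 84 in RS, at least 27.5-fold higher with a floor of 3 counts over the group and TMM scaling (70.9-fold with total counts; adjusted p = 0.00271). *Fos* had 0 in SC and 10, 0 and 113 in RS. The list of 16 summed to 582, 1275 and 2046 CPM in knockout RS and 205 to 272 CPM in SC, and 1 of 5 tested members was higher and 0 lower. The 3 tested p53 and apoptosis genes, *Mdm2* (-0.91, adjusted p = 0.458), *Trp53inp1* (1.23, adjusted p = 0.447) and *Ccng1* (2.63, adjusted p = 0.227), did not pass the test, and the list had a summed level of 548, 207 and 538 CPM in RS and 108 to 140 CPM in SC. The part of cell stress or of other cells in the results was not tested.

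Among all features, the 10 higher ones with the smallest p whose groups did not overlap included *Huwe1*, *Cul4b* and *Map3k15* on the X. Groups did not overlap in 25.8% of all tested features in the higher direction and in 19.4% in the lower one. *Ncl*, nucleolin of ribosome assembly, had 9, 9 and 10 counts in SC and 568, 205 and 287 in RS (4.41 ± 0.59, adjusted p = 0.000141). *Abca1*, a cholesterol exporter, had 0, 1 and 0 counts against 86, 122 and 174 (7.44 ± 1.09, adjusted p = 0.000247). *Epb4.1l2*, a membrane skeleton protein, had 0, 0 and 1 against 86, 69 and 72 (6.67 ± 0.91, adjusted p = 0.00015).

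None of these 3 genes overlaps an opposite-strand gene of known strand, although *Ncl* and *Epb4.1l2* have one within 5 kb. *Col5a1*, a collagen, and *Sipa1l1*, a signalling scaffold, do overlap one, and *Rad9a*, a checkpoint protein, and *Cecr2*, a chromatin remodeller, have no strand in the table used. *Rad9a* overlaps *Ppp1ca* on chromosome 19, and its 28, 9 and 10 counts in SC against 1067, 393 and 522 in RS (4.63 ± 0.66, adjusted p = 0.000213) may hold RNA of that gene.

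The 10 lower ones were BC030499, pi-Hjurp, *Srms*, *Aldh5a1*, *Arhgef11*, 14-qA3-3095, *Oplah*, *Eppk1*, *Ttc14* and 5830444B04Rik. None of them is known to lie clear of opposite-strand genes. *Ttc14*, the second most abundant feature of knockout SC, had 9163, 10938 and 9377 counts there and 116, 48 and 237 in RS (-6.98 ± 0.68, adjusted p = 2.38e-05), and it overlaps *Ccdc39*, a gene of the cilium. *Arhgef11* had 1372, 1549 and 1105 counts against 50, 36 and 57 (-5.62 ± 0.52, adjusted p = 1.78e-05) and lies opposite the end of *Lrrc71*. *Srms*, a kinase gene, had 585, 707 and 398 counts in SC and 0 in RS, at least 432-fold lower with a floor of 3 counts over the group and total counts.

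The difference between the fractions was itself compared between the genotypes, and 1598 of 7900 features differed (20.2%; 9.35% relatively higher in the knockout and 10.9% relatively lower). With total counts 1569 were relatively higher and 715 lower, against 739 and 859. Of the spermatogonial list 7 of 13 were relatively higher and 0 lower (2 to 7 higher with 1 library left out), and of the X genes silenced in pachytene 4 of 9 and 0 (2 to 8). Of the late pachytene list 7 of 19 were relatively lower and 0 higher (1 to 13 lower), of the acrosome list 5 of 18 and 0 (2 to 9), of the tail list 7 of 23 and 0 (1 to 12), and of the spermatid head list 8 of 21 and 0 (7 to 10). The lowest counts came without 1 heterozygous SC library, and for the spermatid head list without knockout SC library 2. Members tested only through a group where they are high favour these directions, so these counts are a description too. *Tnp2* had a difference of -6.66 (adjusted p = 0.00107) and *Dazl* one of 7.89 (adjusted p = 0.000646).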

How the data were processed

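Poly(A) RNA was sequenced from 12 purified-cell libraries (4 groups of 3) and 20 testis libraries. Per the submitters' processing notes, the tools were Cufflinks, featureCounts (Subread 1.4.6-p3), TopHat2 2.1 and cutadapt 1.8.1, with the mm10 build; strand settings are not given in the sources used here. The authors deposited raw counts per feature, used as deposited. Both small RNA tables were left out.

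Counts of the 12 purified-cell libraries were fitted in edgeR 4.0.16 (R 4.3.3): filterByExpr by group, TMM scaling, glmQLFit and glmQLFTest over 4 group means, Benjamini-Hochberg adjustment over 7900 features, threshold 0.05. The heterozygous difference and the difference between the genotypes came from the same fit. The fitted log2 differences are TMM-scaled, and CPM are per total counts. The biological coefficient of variation was 0.615 (0.392 without knockout RS library 2). On simulated counts of the 7900 features, 7% of 4-fold and 56% of 16-fold changes were called, with 0 false among 63 calls. All simulated libraries shared a common mean profile scaled by total counts, unlike the data. The simulation therefore cannot show how many calls of the real comparison are false. DESeq2 1.42.0 and limma 3.58.1 (voom) were alternatives.

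Gene symbols were matched to RefSeq (GRCm38.p6) for 23901 of 24276 features. An opposite-strand gene was searched within 5 kb, among genes of known strand only. Features named are, per direction, the 10 with the smallest p among called features whose groups do not overlap, for each list the 3 most abundant and the 3 with the smallest p, a fixed set of markers, the 10 with the smallest p in the difference between genotypes, and for piRNA loci the 3 most abundant and the 3 with the smallest p; other list members are examples chosen after their values were seen. The members and lists were chosen with earlier results of these data known. All 18 lists are described in the text or the closing section. The values of 1 list member are not reported here. The SDs and the standard errors of the fit include the spread between libraries, while the floors cover counting error only.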

Additional observations from a re-analysis of the deposited data

Results flagged for a closer look

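The RS over SC difference was tested between the genotypes in the same edgeR fit, and 1598 of 7900 features differed (20.2%; 739 in the higher and 859 in the lower direction for the knockout). The values below are differences of log2 differences, knockout minus heterozygous, and each passed an adjusted p of 0.05.

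Spermatid genes were relatively lower in the knockout. The value was -6.66 for *Tnp2*, -5.88 for *Prm1*, -5.65 for *Prm2*, -7.74 for *Acrv1* and -5.07 for *Odf1*. *Pgk2*, the germ cell phosphoglycerate kinase, had -3.93. *Fam71a*, a testis gene clear of opposite-strand genes, had -10.51: 0 counts in all 3 knockout RS libraries, 64, 31 and 39 in knockout SC and 122, 128 and 69 in heterozygous RS. The piRNA locus 14-qA3-3095 had -10.31 and *Alpi* had -9.57, with 1, 0 and 0 counts in knockout RS against 121, 124 and 108 in heterozygous RS.

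*Zbtb16* and *Dazl*, genes of earlier germ cells, were relatively higher. *Zbtb16* had 8.52, with 0 counts in all heterozygous RS libraries, and *Dazl* had 7.89, with 3, 1 and 1 counts there against 376, 142 and 180 in knockout RS. Outside the lists of germ cell genes, *Ncl* had 7.40 and *Tmem206* 9.91. *Rad9a* (8.64), *Samd11* (7.59), *Mettl5* (6.18) and *Gm15441* (6.38) also differed, and each of these 4 overlaps another gene (*Ppp1ca*, *Noc2l*, *Ssb* and *Txnip*). Values that rest on a group at 0 depend on the prior count of the fit.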

How the results depend on the processing

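In simulated counts of this depth and spread 4-fold changes were called in 7% of cases; depth and spread were not told apart. The knockout difference gave 2647 calls, and between 1334 and 4396 when 1 library was left out. The highest came without knockout RS library 2 and the lowest without SC library 1 (1463 and 1545 without SC libraries 2 and 3), with 22.1% to 49.1% of calls higher. Among clear features fitted alone it gave 629 calls of 2261, fewer features being tested. The heterozygous difference gave 1138 calls, 204 to 3499 with 1 library left out (6 to 1606 higher), 2328 with DESeq2, 4386 with voom, 3057 in the 6 heterozygous libraries alone and 154 among clear features. The difference between genotypes gave 1598 calls, 592 to 3386 with 1 library left out, 2782 with DESeq2, 3293 with voom and 344 among clear features. For the knockout difference DESeq2 gave 1311 higher and 2151 lower, voom 1420 and 1769, the 6 knockout libraries alone 1086 and 814, and size factors in place of TMM 1098 and 1845; with these size factors the heterozygous split was 822 and 606 and that of the difference 668 and 1387. In the heterozygous difference and in the difference between genotypes, leaving out any library but knockout RS 1 or 3 moved the count by over 1.5 times. The cause was not tested. Of 105 named features, all 105 kept direction and call without *Rn45s*, 83 did with total counts, where *Ddx4* turned to 1.28, and 97 did without RS library 2, the other 8 being newly called. Calls were lost for 15, 14 and 11 of them without SC libraries 1, 2 and 3 and for 13 in the 6 knockout libraries alone. Genes highest at P10 had a median of 2.28 over 5 tested (*Fn1* and *Tnrc18* higher, named after their values were seen) and of 1.05 over 200 with a lower fold.

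Same-numbered libraries did not deviate together (correlations from -0.02 to 0.04 in knockouts and from -0.07 to 0.01 in heterozygotes), and 2 of 3 knockout and 0 of 3 heterozygous SC libraries correlated best with their own number. With a replicate block the knockout difference gave 535 higher and 1364 lower calls, the heterozygous one 215 calls (21 higher) and the difference between genotypes 545. The opposite-strand alternative, the fit without *Rn45s*, the lists without RS library 2 or over clear features, the lists with each library left out and the age groups without shared genes were added after seeing the data.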

Other observations

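Ribosomal protein genes, 86 of them by symbol, were a second group with a high level in knockout RS. They summed to 3615, 5178 and 4006 CPM there, 953 to 1049 CPM in knockout SC and 1061 to 1294 CPM in heterozygous RS, and heterozygous testes held 4309 to 4895 CPM at P10 and 2990 to 3000 CPM at P28. Over the 33 clear ones the sums were 1421, 1926 and 1565 CPM in knockout RS and 286 to 306 CPM in knockout SC. Of 30 tested, 11 were higher and 4 lower in knockout RS than in knockout SC, with a median of 1.54. Over all features 12.5% were higher and 21.0% lower. Which groups carried these 30 through the count filter was not examined, so the tally is a description only. Many of these genes have near-identical pseudogenes, and the group was chosen after values of these data were seen.

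Over the 9434 clear features, which share their depth limits, the levels in RS library 1 had a Spearman rho of 0.80 to 0.82 with testes at P10 to P18, 0.79 with P28 knockout testes, 0.74 with P28 heterozygous testes, 0.64 to 0.65 with knockout SC and 0.53 to 0.55 with heterozygous RS. RS library 3 had 0.73 to 0.75 with testes at P10 to P18, 0.74 with P28 knockout and 0.71 with P28 heterozygous testes, 0.58 to 0.59 with knockout SC and 0.51 to 0.53 with heterozygous RS. RS library 2, with the fewest features detected, had 0.42 to 0.45 with testes at P10 to P18, 0.41 to 0.42 with P28 knockout and 0.38 to 0.39 with P28 heterozygous testes, 0.34 to 0.35 with knockout SC and 0.27 to 0.29 with heterozygous RS.

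Among other lists, red blood cell, fat cell and X and Y round spermatid genes had 1, 1 and 4 tested members, none of which passed edgeR's test (1 of the 4 did with total counts). The last group summed to 43.3, 0 and 83.0 CPM in knockout RS, 0 to 5.19 CPM in knockout SC and 265 to 467 CPM in heterozygous RS. Of the 2 tested Sertoli genes, *Ctsl*, a lysosomal protease, was higher in knockout RS (35, 17 and 74 counts against 0, 1 and 1), and *Dhh*, a signalling ligand, was lower (5, 0 and 39 against 163, 77 and 54). Of the 4 Leydig genes and 3 peritubular and endothelial genes tested, *Star* and *Tagln* were lower and 0 were higher.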
